A study of Mus musculus with 6 samples.

Results

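Beta-adrenergic, cAMP and CREB signalling is represented here by 9 genes chosen by symbol: the receptor gene Adrb1, the adenylate cyclase gene Adcy9, the phosphodiesterase genes Pde4a, Pde4b and Pde4d, the protein kinase A (PKA) subunit genes Prkaca and Prkar2a, and the CREB-side genes Crtc2 and Crem. All 9 were found among the 51911 genes of the deposited count table. Their transcripts were counted in bulk RNA from gastrocnemius, a calf muscle, taken from male mice. One group was HSA-PGC-1a3 transgenic (3 libraries), in which the human skeletal actin promoter, active in skeletal muscle, drives PGC-1a3, 1 of several isoforms of PGC-1alpha, a coactivator of transcription. The other group was wild-type (3 libraries), and no treatment is named for either. The labels give neither ages nor the number of animals behind a library, so p-values measure only the spread between these libraries, which may be technical.

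In muscle, beta-adrenergic receptors couple through the stimulatory G protein to adenylate cyclases, which make cyclic AMP. Cyclic AMP releases the catalytic subunits of PKA from their regulatory subunits, phosphodiesterases such as those of the PDE4 family break it down, and PKA phosphorylates CREB, whose target genes are also driven by the CRTC coactivators once these enter the nucleus. The pathway is known for hypertrophy under beta-agonists and for inducing PGC-1alpha itself, including isoforms made from an upstream promoter.

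The libraries held 25532146 to 40846872 counts, and a count of 3 equals 0.0804 to 0.134 CPM in them (CPM, counts scaled to library size with TMM composition factors). Ppargc1a, which encodes PGC-1alpha, was at 2449 to 3238 CPM in the transgenic group and 51.1 to 53.5 CPM in the wild-type group, higher in the group that the labels call transgenic. Counts per gene separate neither PGC-1a3 from the other isoforms nor the transgene from the mouse's own gene. The 6 markers of skeletal muscle fibre were all present, and their summed level was 49200 to 49800 CPM in transgenic against 94900 to 103000 CPM in wild-type libraries. All 6 endothelial markers (summed 298 to 317 against 373 to 397 CPM) and all 6 smooth muscle and pericyte markers (611 to 675 against 970 to 1040 CPM) were also lower, while the summed macrophage (77.1 to 89.1 against 58.6 to 92.1 CPM), Schwann cell (68.7 to 265 against 105 to 214 CPM) and slow-fibre levels (1230 to 2820 against 735 to 1930 CPM) overlapped between genotypes. The summed adipocyte markers did not overlap (142 to 178 against 186 to 368 CPM), with 1 of 7 called lower and the highest sum in wild-type replicate 1. The fibroblast sums ran from 893 to 1050 against 1040 to 1250 CPM. With library totals alone 3 fibre, 0 endothelial, 4 smooth muscle and 0 adipocyte markers passed as lower, and none of the markers was at 0 in any library. Over all tested genes, 25.2% were called lower with TMM factors and 8.73% with library totals alone. In bulk tissue, fewer cells of a type and less RNA of its marker genes per cell cannot be told apart. The part of these marker levels in the results below was not tested.

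The 2 PKA subunit genes moved in opposite directions. Prkaca, the catalytic subunit, rose 1.39-fold and Prkar2a, the type II regulatory subunit, fell 1.58-fold in the transgenic muscle. Adcy9 and Pde4d fell as well, Crtc2 rose slightly, and Pde4a, Pde4b and Crem did not pass the test. Adrb1 was too low to be tested. Of the 8 members tested, 2 were called higher and 3 lower (adjusted p under 0.05, edgeR's quasi-likelihood test with Benjamini-Hochberg adjustment over 16593 genes), in a comparison that called 50.7% of all tested genes, 25.5% as higher and 25.2% as lower. CPM did not overlap between genotypes for 5 of the 8, against 59.6% of all tested genes. These counts lie near those shares and say nothing particular about the members, whose median log2 fold change was 0.02 against -0.016 for all genes tested.

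**Figure D1:**
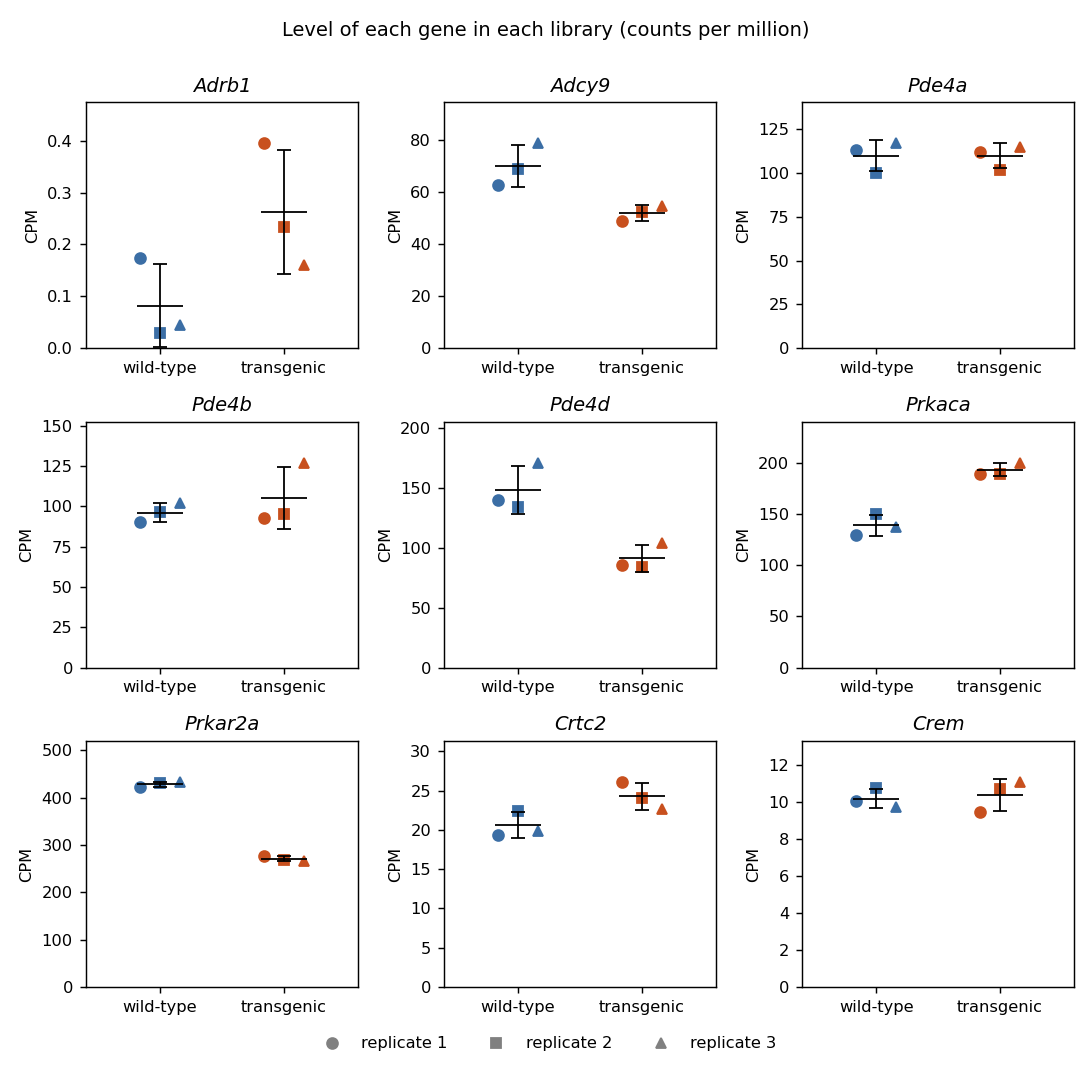
CPM of each of the 9 genes (vertical axes, each from 0) in the 3 wild-type and 3 transgenic libraries, with the marker shape giving the replicate number, the horizontal line the mean and the bar the SD. Prkaca lies higher and Prkar2a, Adcy9 and Pde4d lower in every transgenic library than in any wild-type library, while the points of Pde4a, Pde4b and Crem overlap.

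Adrb1 encodes the beta-1 adrenergic receptor, the main beta-receptor of heart, and lies on chromosome 19, 56722199 to 56733113 (GRCm38). It had 12, 7 and 6 counts in transgenic replicates 1, 2 and 3 and 4, 1 and 1 counts in wild-type replicates 1, 2 and 3. Summed, 25 counts stood against 6, a ratio of 3.42 after scaling for depth (95% counting interval 1.37 to 10.2, which covers counting error only). Transgenic replicate 1 held almost as many counts as the other two transgenic libraries together, and the lowest transgenic level, 0.161 CPM, was under the highest wild-type level, 0.173 CPM.

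Adcy9 encodes a membrane adenylate cyclase that is largely insensitive to forskolin and lies on chromosome 16, 4287529 to 4420498 on the minus strand. Its levels were 48.9, 52.1 and 54.7 CPM in transgenic and 62.7, 68.7 and 78.6 CPM in wild-type libraries. Every transgenic library was below every wild-type library, with means of 51.9 ± 2.91 and 70.0 ± 8.01 CPM (SD, n = 3 each). The log2 fold change was -0.43 (SE 0.08, adjusted p = 0.00126, edgeR), a level 1.35-fold lower. With library totals in place of TMM factors the difference was -0.03 and did not pass (adjusted p = 0.745). Within the 10 adenylate cyclase genes, where such scaling cancels out, Adcy9 held 19.6%, 20.2% and 21.7% of the length-scaled counts in transgenic muscle and 28.9%, 30.8% and 33.5% in wild-type libraries. That is a difference of -10.6 percentage points without overlap (exact two-sided permutation p = 0.1, the smallest that 3 libraries against 3 allow, and 0.113 adjusted over the 9 shares tested). Adcy2, a calcium-insensitive cyclase, was the most abundant cyclase per kb in both groups and held 54.3% ± 0.898 against 38.4% ± 0.965. It rose from 70.0 ± 1.15 to 112 ± 3.71 CPM (log2 fold change 0.67, SE 0.05, adjusted p = 2.03e-06, edgeR).

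The PDE4 enzymes hydrolyse cyclic AMP and are the target of rolipram. Pde4d, the PDE4 gene with the longest span here (chromosome 13, 108449948 to 109953461), was at 85.8, 83.8 and 104 CPM in transgenic and 140, 134 and 171 CPM in wild-type libraries. Replicate 3 was the highest of each genotype, and the groups did not overlap. The means were 91.3 ± 11.3 and 148 ± 20.1 CPM (SD, n = 3 each), a 1.62-fold lower level in transgenic muscle (log2 fold change -0.70, SE 0.12, adjusted p = 0.00132, edgeR). With library totals alone the difference was -0.30 and no longer passed (adjusted p = 0.0685).

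Pde4a (chromosome 9, 21165714 to 21213248) was at 112, 102 and 115 CPM in transgenic and 113, 100 and 117 CPM in wild-type libraries. The 2 groups covered nearly the same range. The 95% interval of its log2 fold change ran from -0.14 to 0.14 (adjusted p = 0.995, edgeR), and with library totals alone it turned to 0.39 and passed (adjusted p = 0.00128). Pde4b (chromosome 4, 102087543 to 102607259), the PDE4 gene linked to inflammatory signalling in leukocytes, was at 92.5, 95.2 and 127 CPM against 90.1, 96.5 and 102 CPM. Transgenic replicate 3 stood above the other five, which lay within a narrow range. Its log2 fold change was 0.13 with an interval of -0.11 to 0.37 (adjusted p = 0.419, edgeR), and 0.52 with library totals alone (adjusted p = 0.00739). Neither interval excludes a small difference in either direction.

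The makeup of the PDE4 family also differed between genotypes in measured shares. Pde4d held 22.6%, 22.9% and 23.7% of the length-scaled PDE4 counts in transgenic muscle and 32.6%, 32.3% and 35.4% in wild-type libraries, a difference of -10.4 percentage points. Pde4b held 27.7%, 29.6% and 32.8% against 23.9%, 26.5% and 23.9%. Pde4a held 43.7% ± 2.65 against 39.0% ± 1.82 (SD, n = 3 each), with its lowest transgenic and highest wild-type share both at 41.1% when rounded. None of the 3 shares overlapped between genotypes, and each reached the smallest exact permutation p of 0.1 (0.113 adjusted). Shares within a family are tied, since a lower share of 1 gene raises the others, so these 3 results are not independent. In level only Pde4d passed with TMM factors. By these length-scaled shares the order in wild-type libraries was Pde4a, Pde4d, Pde4b and in transgenic libraries Pde4a, Pde4b, Pde4d. In CPM without the length, Pde4d was the highest of them in wild-type libraries (means of 148, 110 and 96.1 CPM for Pde4d, Pde4a and Pde4b). It was the lowest of them in transgenic libraries (91.3, 110 and 105 CPM). Pde4c, the fourth member of the family, stayed at 3.21% ± 0.775 and 2.82% ± 0.387. Counts per gene cannot tell the long from the short PDE4 forms that 1 gene makes from its different promoters.

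**Figure D2:**
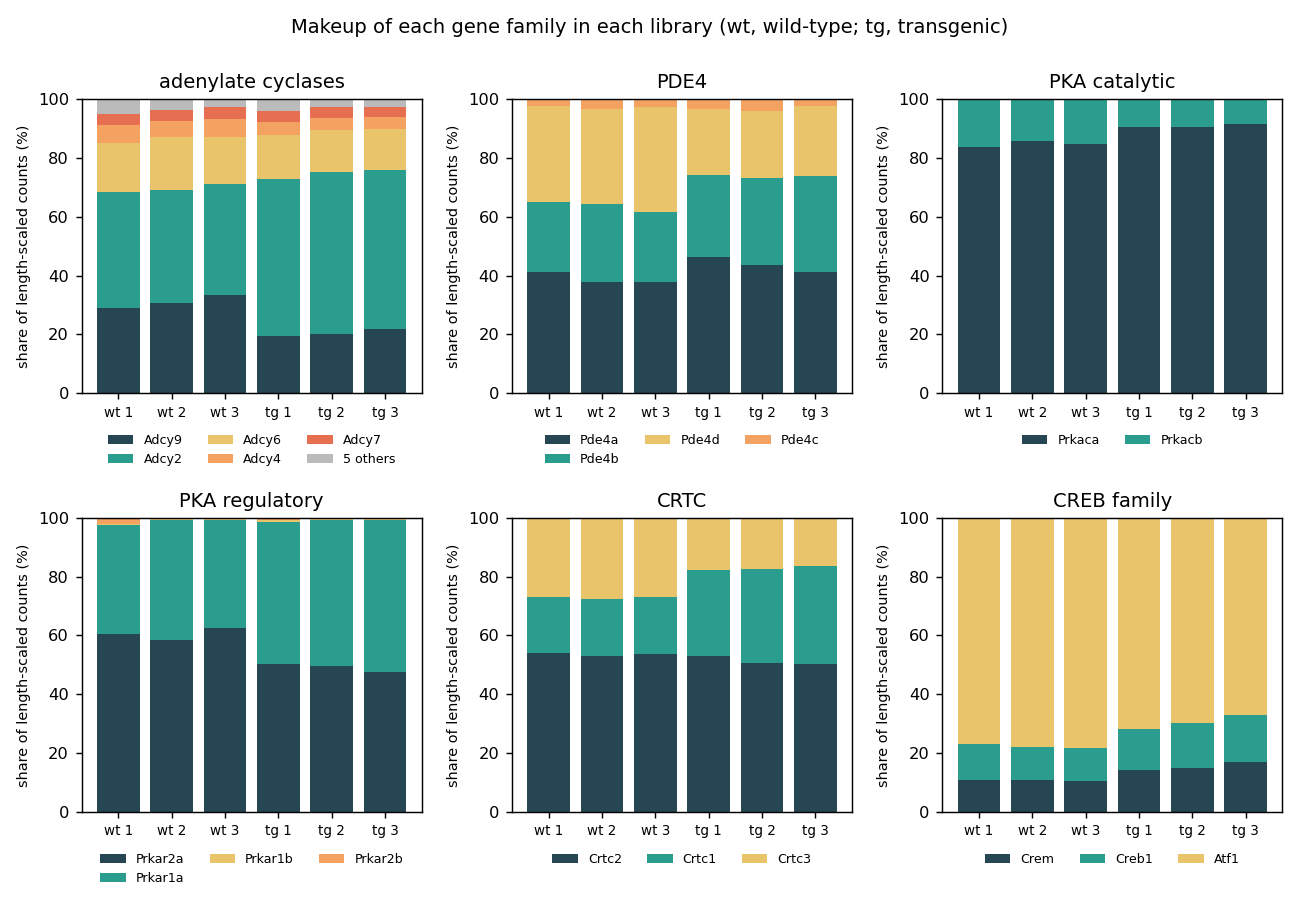
Share of length-scaled counts (vertical axes, percent) that each gene holds within its family, 1 bar for each library (wt, wild-type; tg, transgenic). The Pde4d segment is 22.6% to 23.7% in transgenic against 32.3% to 35.4% in wild-type bars, the Prkaca segment 90.4% to 91.5% against 83.7% to 85.7%, and the Prkar2a segment 47.5% to 50.2% against 58.3% to 62.6%.

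PKA is a tetramer of catalytic and regulatory subunits. Prkaca (chromosome 8, 83972993 to 83996443), the main catalytic subunit gene in most tissues, was at 189, 189 and 200 CPM in transgenic and 129, 150 and 137 CPM in wild-type libraries. The lowest transgenic library was well above the highest wild-type library, with means of 193 ± 6.42 and 139 ± 10.3 CPM (SD, n = 3 each). The log2 fold change was 0.48 (SE 0.06, 95% interval 0.35 to 0.60, adjusted p = 9.03e-05, edgeR). Its processed pseudogene Prkaca-ps1 on the X chromosome had at most 7 counts in any library, against at least 2981 for Prkaca. The other catalytic gene, Prkacb, fell under TMM scaling (-0.35, SE 0.06, adjusted p = 0.000336, edgeR) and was at 0.05 with library totals alone. Prkaca held 90.8% ± 0.647 of the length-scaled catalytic counts in transgenic muscle and 84.8% ± 1.02 in wild-type libraries, a difference of 6.04 percentage points without overlap (exact permutation p = 0.1, 0.113 adjusted).

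Prkar2a (chromosome 9, 108689314 to 108750436) encodes the RII-alpha subunit, which ties PKA to A-kinase anchoring proteins. It was at 277, 269 and 266 CPM in transgenic and 422, 430 and 433 CPM in wild-type libraries. The libraries of each genotype lay within a few percent of one another, and the gap between genotypes was many times wider. The means were 271 ± 5.82 and 428 ± 5.80 CPM (SD, n = 3 each), and the log2 fold change was -0.66 (SE 0.05, 95% interval -0.77 to -0.56, adjusted p = 2.59e-06, edgeR). Among the 4 regulatory subunit genes Prkar2a held 49.1% ± 1.42 of the length-scaled counts in transgenic muscle and 60.5% ± 2.19 in wild-type libraries, without overlap (exact permutation p = 0.1, 0.113 adjusted). The rest was almost wholly Prkar1a, the RI-alpha gene, at 49.9% ± 1.63 against 38.3% ± 2.42. The level of Prkar1a overlapped between genotypes (186 ± 8.25 and 184 ± 18.6 CPM, log2 fold change 0.02, SE 0.07, adjusted p = 0.861, edgeR). With library totals alone it was at 0.41 and passed as higher (adjusted p = 0.000205, edgeR). Prkar1a passed neither way under TMM scaling, and RII-beta, the Prkar2b gene typical of fat, ranged from 1.03 to 8.27 CPM over the 6 libraries, with the highest value in wild-type replicate 1, where the summed adipocyte markers were also highest (368 CPM against 142 to 199 CPM elsewhere; their part was not tested).

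Set against each other per kb of exon, catalytic counts were 0.988 ± 0.0157 times the regulatory counts in transgenic muscle and 0.591 ± 0.0204 times in wild-type muscle (SD, n = 3 each). This ratio and those that follow were computed after the subunit values were seen and have no test. Prkaca alone was 1.83 ± 0.0942 times Prkar2a in transgenic and 0.830 ± 0.0548 times in wild-type libraries. Pkia, which encodes the muscle-rich heat-stable PKA inhibitor, fell from 762 ± 39.6 to 346 ± 7.43 CPM (log2 fold change -1.14, SE 0.06, adjusted p = 1.83e-07, edgeR; -0.74 with library totals alone). Per kb, Prkaca was 0.834 ± 0.0459 times Pkia in transgenic and 0.272 ± 0.0168 times in wild-type libraries. Transcript ratios are not protein ratios, and no kinase activity was measured here.

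Over the 6 libraries, the protein-coding genes whose log2 CPM profile lay closest to that of Prkar2a were Insr (distance 0.0297), the insulin receptor gene, Aven (0.0409), an apoptosis inhibitor, and Smyd1 (0.0511), a muscle methyltransferase. Closest to Prkaca were Mettl17 (0.0275), R3hdm4 (0.0395) and Med22 (0.0479), a Mediator subunit. The distance is Euclidean on log2 CPM centred on each gene's mean, over 9862 genes with a mean of at least 5 CPM. Since 50.7% of genes were called between the genotypes, many genes share such a profile.

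The promoters of these PKA genes are shown because Prkar2a and Prkaca had the smallest p-values among the members and moved in opposite directions. The full cAMP response element TGACGTCA was in 0 of 13 RefSeq windows (250 bases before to 50 after a start) of the 7 members that have one there, and in 1.79% of all 32851 windows of that length. Its 5-base part TGACG, or CGTCA on the other strand, was in 6 of the 13 windows (1 each for 6 members, Pde4d being the seventh), and in 20.8% of all windows, where a full element also counts as a match. The oestrogen-related receptor element TCAAGGTCA, bound by a factor that PGC-1alpha coactivates, was in 0 of the 13 and in 0.423% of all windows (both strands searched throughout). The runs below go from 150 bases before to 10 bases from the RefSeq start site (RefSeq, GRCm38.p6, plus strand), Prkar2a at chr9:108691993-108692152 and Prkaca at chr8:83972828-83972987, with CGTCA in capitals:
Prkar2a: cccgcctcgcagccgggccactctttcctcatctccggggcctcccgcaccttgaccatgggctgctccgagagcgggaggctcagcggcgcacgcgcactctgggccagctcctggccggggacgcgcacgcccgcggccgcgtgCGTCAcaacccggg
Prkaca: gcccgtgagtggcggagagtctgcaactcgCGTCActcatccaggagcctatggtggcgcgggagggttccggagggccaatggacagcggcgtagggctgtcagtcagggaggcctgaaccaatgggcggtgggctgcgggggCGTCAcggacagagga
Prkar2a has 1 match, starting 4 bases before the start site, and Prkaca has 2, starting 120 and 6 bases before it. The other RefSeq window of Prkaca (chr8:83976633-83976932) is not shown and has no match. The run of Prkar2a lies inside the gene span given above, which starts at 108689314. The runs are 75.6% and 67.5% G or C, where the median of all windows is 52.7%. A match describes letters only, and no binding was measured in this series.

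On the CREB side, Crtc2 (chromosome 3, 90254163 to 90264125), a coactivator that moves to the nucleus when dephosphorylated, was at 26.1, 24.1 and 22.7 CPM in transgenic and 19.4, 22.4 and 19.9 CPM in wild-type libraries. The groups did not overlap, but transgenic replicate 3 and wild-type replicate 2 lay close together. The means were 24.3 ± 1.71 and 20.6 ± 1.63 CPM (SD, n = 3 each), and the log2 fold change was 0.24 (SE 0.08, adjusted p = 0.0337, edgeR). This call ended without transgenic replicate 1 (0.20, adjusted p = 0.0768), without wild-type replicate 1 (0.19, adjusted p = 0.123), without wild-type replicate 3 (0.20, adjusted p = 0.117) and in DESeq2's Wald test (0.24, adjusted p = 0.0544). In share of the CRTC family, Crtc2 was lower rather than higher, at 51.3% ± 1.40 against 53.5% ± 0.457 (SD, n = 3 each; exact permutation p = 0.1, 0.113 adjusted), though the highest transgenic share, 52.9%, lay just under the lowest wild-type share, 53.0%. Crtc1 rose 1.99-fold (log2 fold change 0.99, SE 0.08, adjusted p = 1.58e-06, edgeR) and held 31.5% ± 2.05 against 19.3% ± 0.079, while Crtc3 held 17.2% ± 0.776 against 27.2% ± 0.384. Crtc3 fell under TMM scaling (-0.37, SE 0.09, adjusted p = 0.007, edgeR) and was at 0.03 with library totals alone.

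Crem (chromosome 18, 3266048 to 3337748, minus strand) encodes cAMP response element modulators, activators and repressors made from 1 gene, including the cAMP-inducible repressor ICER, which gene-level counts do not separate. It was at 9.50, 10.7 and 11.1 CPM in transgenic and 10.1, 10.8 and 9.76 CPM in wild-type libraries. The groups overlapped throughout. The log2 fold change was 0.03 (95% interval -0.16 to 0.22, adjusted p = 0.81, edgeR), and 0.43 with library totals alone (adjusted p = 0.00206). Crem shares 472 exonic bases (8.01% of its exons) with Gm6225 on the other strand, and the counting did not use strand, so part of its counts is uncertain. Within Crem, Creb1 and Atf1, Crem held 15.3% ± 1.37 in transgenic and 10.9% ± 0.223 in wild-type libraries, without overlap (exact permutation p = 0.1, 0.113 adjusted). Atf1, a CREB-related activator, fell from 38.0 ± 1.59 to 24.7 ± 1.51 CPM (log2 fold change -0.63, SE 0.07, adjusted p = 2.35e-05, edgeR; -0.23 with library totals alone), and Creb1 was at 23.9 ± 1.82 and 24.8 ± 1.10 CPM (-0.05, SE 0.08, adjusted p = 0.594, edgeR). With library totals alone Creb1 was at 0.34 and passed as higher (adjusted p = 0.00208, edgeR), where the median of all tested genes was 0.38.

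Ordered by CPM per kb of exon, the wild-type levels ran from Prkar2a (67.1) and Prkaca (55.7) through Pde4a (14.4), Adcy9 (13.5), Pde4d (12.4), Pde4b (9.10), Crtc2 (5.02) and Crem (1.73) to Adrb1 (0.0243). The ranges of Pde4a and Adcy9 overlapped, as did those of Adcy9 and Pde4d, so their order is not resolved. In transgenic libraries Prkaca (77.5) stood above Prkar2a (42.4), followed by Pde4a (14.3), Adcy9 (9.99), Pde4b (9.93), Pde4d (7.60), Crtc2 (5.93), Crem (1.77) and Adrb1 (0.0777). Only Adcy9 and Pde4b overlapped as neighbours there. By this measure the 2 PKA genes traded places at the top, and Pde4d moved below Pde4b. In CPM without the length, Prkar2a stayed above Prkaca in transgenic libraries (means of 271 and 193 CPM). Pde4d stood above Pde4a in wild-type libraries by that measure (means of 148 and 110 CPM).

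The size of these differences depended on the scaling between libraries. TMM factors were 1.15 in the transgenic and 0.851 to 0.885 in the wild-type libraries. Leaving them out shifted the median over all tested genes from -0.016 to 0.38 on the log2 scale. In that setting 5 of the 8 members passed as higher and 1 as lower, beside 52.3% and 8.73% of all tested genes. Prkaca was at 0.87 and Prkar2a at -0.27 (adjusted p = 0.000853, edgeR), both in the same direction as with TMM factors, and each kept its call in all 15 alternative settings run. The authors' deposited table, whose smallest absolute log2 fold change is 0.585, holds 2 of the 8 tested members, beside 20.2% of all genes tested here. The values in the authors' deposited table were -0.652 for Prkar2a (adjusted p = 2.72e-27) and -0.681 for Pde4d (adjusted p = 1.56e-09).

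**Figure D3:**
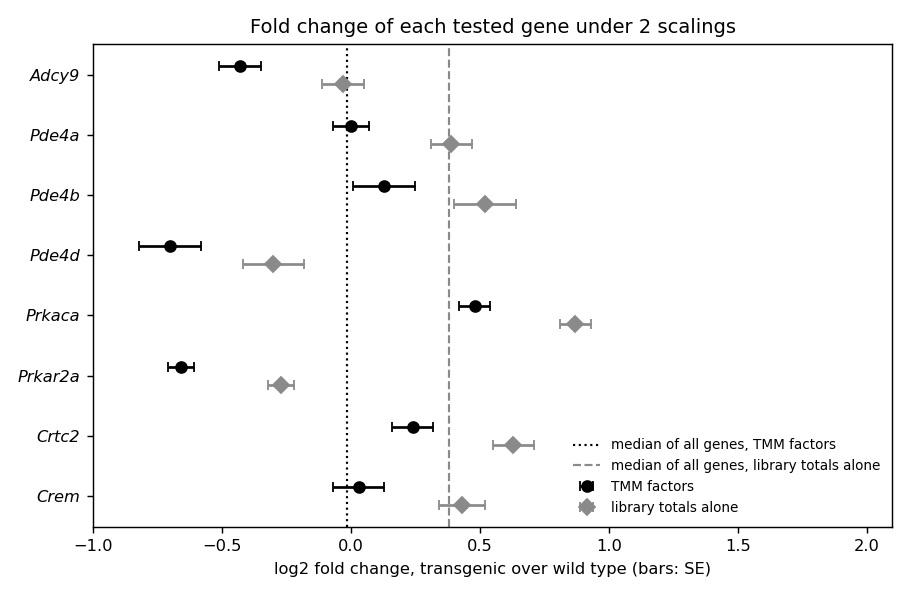
Log2 fold change of the 8 tested genes (horizontal axis, transgenic over wild type, bars are SE) with TMM factors (black) and with library totals alone (grey). Dotted and dashed lines mark the median of all genes under each scaling, -0.016 and 0.38; Prkar2a lies below 0 and Prkaca above 0 under both.

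Of 100 genes in 14 lists of the same pathway, the members included, 93 were tested, 14 rose and 27 fell. That is 44.1%, beside 50.7% of all tested genes, and the median log2 fold change was -0.08 against -0.016. Without the members, 12 of 85 rose and 24 fell. With library totals alone 40 of the 93 were higher and 5 lower, so the surplus of lower calls, which DESeq2 size factors and upper-quartile factors also gave, was not there in that setting. The 5 lower calls that lasted there were those of Prkar2a, Pkia, Pde4dip, Rapgef3 and Atf1, each with a smaller difference than under TMM scaling. Every other lower call of these lists ended, while the 14 higher calls were kept. Among those that ended, Akap13 turned from lower (-0.18, adjusted p = 0.0283, edgeR) to higher (0.21, adjusted p = 0.0121, edgeR). At the level of the receptor, 1 of 6 tested adrenergic receptor genes rose, Adra2a, the inhibitory alpha-2A receptor (1.29, SE 0.41, adjusted p = 0.0247, edgeR), which stayed under 2.5 CPM. The G protein genes split into 3 that fell and 1 that rose of 9: Gnas, which encodes the stimulatory alpha subunit (-0.42, SE 0.07), and the gamma subunits Gng5 (-0.59, SE 0.08) and Gng12 (-0.59, SE 0.09) fell, and the inhibitory Gnai2 rose (0.24, SE 0.07). With library totals alone none of the 3 that fell still passed, with Gnas at -0.03 and Gng5 and Gng12 both at -0.19, and Gnas shares exons with Nespas and Gm20721. Receptor kinases and arrestins, which switch off the receptor, gave 2 of 7 in each direction. Grk3 (1.27, SE 0.09) and Arrb2 (0.93, SE 0.10) rose while their close relatives Grk2 (-0.42, SE 0.06) and Arrb1 (-0.35, SE 0.09) fell. Neither of these 2 passed with library totals alone, with Grk2 at -0.02 and Arrb1 at 0.05.

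Beside Adcy9, the cyclase list of 10 tested genes held 1 that rose, Adcy2, and 3 others that fell, Adcy4 (-0.32, SE 0.09), Adcy5 (-0.69, SE 0.23, with overlapping groups) and the cyclase-associated Cap2 (-0.52, SE 0.06). These 3 were at 0.07, -0.30 and -0.13 with library totals alone and did not pass. Beside Pde4d, the PDE4 list held Pde4dip, the myomegalin scaffold that binds PDE4D and is no phosphodiesterase, which fell from 4920 ± 253 to 2830 ± 97.8 CPM (-0.80, SE 0.07, adjusted p = 2.79e-06, edgeR; -0.40 with library totals alone). Of 11 other tested cAMP phosphodiesterase genes 5 fell and 1 rose. In either direction 54.5% of that list was called, beside 50.7% of all tested genes. The one that rose was Pde10a (0.84, SE 0.16), and Pde3a (-0.61, SE 0.14), Pde7b (-0.34, SE 0.07) and Pde2a (-0.32, SE 0.06) were among those that fell, which with library totals alone were at -0.21, 0.05 and 0.08 and did not pass. Pde2a shares 64.3% of its exonic bases with Gm45837, so its counts are uncertain. Both tested PKA inhibitor genes fell, Pkia as above and Pkig (-0.38, SE 0.06, and 0.01 with library totals alone). With only 2 genes tested, that count says little about the family. Of 10 A-kinase anchoring protein genes, 3 rose and 2 fell, with Akap7 (0.76, SE 0.07), Akap8 (0.38, SE 0.08) and Akap11 (0.42, SE 0.11) higher and Akap12 lower (-0.30, SE 0.07, and 0.09 with library totals alone). Of 4 genes of the Epac branch, which carries cyclic AMP signals to Rap proteins without PKA, Rapgef3 (-0.76, SE 0.12) and Rap1a (-0.43, SE 0.06) fell. With library totals alone Rapgef3 and Rap1a were at -0.37 and -0.03, and Rap1a did not pass. The called shares of the cyclase, A-kinase anchoring protein and Epac lists also lay near the 50.7% of all tested genes. The counts of these lists and of the phosphodiesterase list therefore say nothing particular about those families. Among 5 CREB coactivators Ep300, a histone acetyltransferase, fell (-0.46, SE 0.06; -0.07 and not passing with library totals alone), beside the CRTC genes above.

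**Figure D4:**
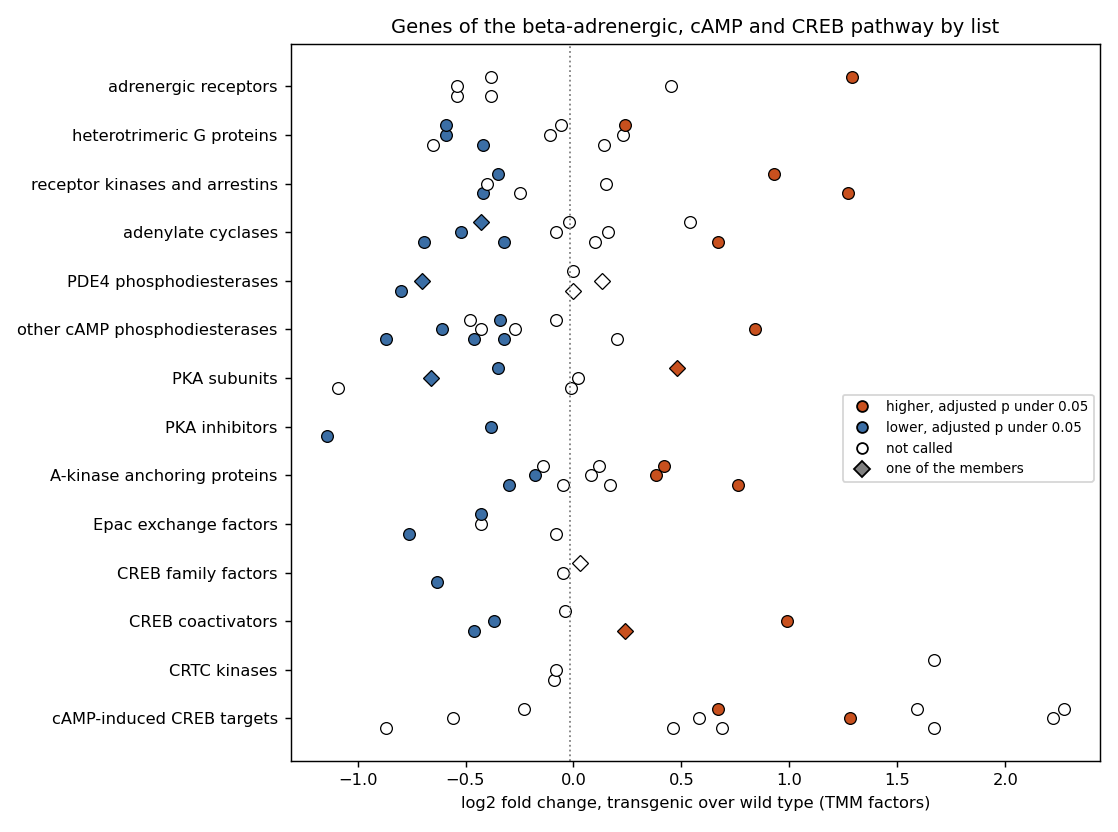
Log2 fold change (horizontal axis, transgenic over wild type, TMM factors) of each tested gene of the 14 pathway lists, coloured by call, with diamonds for the 8 tested genes described above and a dotted line at the median of all genes. Each list of 4 or more tested genes holds points on both sides of the dotted line except the Epac list, and the called genes are 14 higher and 27 lower.

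Downstream, 2 of 12 genes known to be induced by CREB after a cyclic AMP signal rose: Rgs2, a brake on G protein signalling (16.2, 19.9 and 14.3 CPM against 6.15, 6.97 and 7.53 CPM, log2 fold change 1.28, SE 0.13, adjusted p = 1.73e-05, edgeR), and the transcription factor gene Cebpb (0.67, SE 0.15, adjusted p = 0.00814), which shares 20.7% of its exonic bases with Tmem189. Those 2 are 16.7% of the list, beside 50.7% of all tested genes. The median of the 12 was 0.68, and the spread between libraries was wide. Transgenic replicate 3 was the highest library for Junb (138 CPM), Fos (48.5 CPM), Nr4a2 (24.6 CPM) and Nr4a3 (27.3 CPM), while transgenic replicates 1 and 2 had 25.2 and 40.3 CPM of Junb and 15.1 and 12.2 CPM of Fos. None of these passed (Junb 2.22, SE 0.83, adjusted p = 0.0925, and Fos 1.59, SE 0.72, adjusted p = 0.141, edgeR). Junb and Fos nevertheless did not overlap between genotypes, as was so for 59.6% of all tested genes. Transgenic replicate 3 was the highest library for Cebpb too (144 CPM, with 98.9 and 114 CPM in transgenic replicates 1 and 2). The same held for Nr4a1, Fosb, Per1 and Gem, but not for Rgs2, Dusp1 or Pck1. In the authors' deposited table Junb (1.215, adjusted p = 0.0136) and Fos (0.985, adjusted p = 0.0453) are listed as higher with an adjusted p under 0.05. Among the 3 genes of the kinases that hold CRTC proteins in the cytoplasm, Sik3, the most abundant by CPM, was at 56.8 ± 0.983 and 60.3 ± 2.77 CPM (-0.09, SE 0.06, adjusted p = 0.226, edgeR). With library totals alone Sik3 was at 0.31 and passed as higher (adjusted p = 0.000421, edgeR). Sik1 passed under neither scaling and was at 15.6, 32.0 and 87.3 CPM in transgenic muscle and 12.8 to 15.8 CPM in wild-type muscle (adjusted p = 0.14 with TMM factors, edgeR). Transgenic replicate 3 was also the highest of the transgenic libraries for 6 members, Adcy9, Pde4a, Pde4b, Pde4d, Prkaca and Crem. Without it and wild-type replicate 1, the members still gave 2 higher and 3 lower calls, in a setting chosen after seeing the data.

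**Figure D5:**
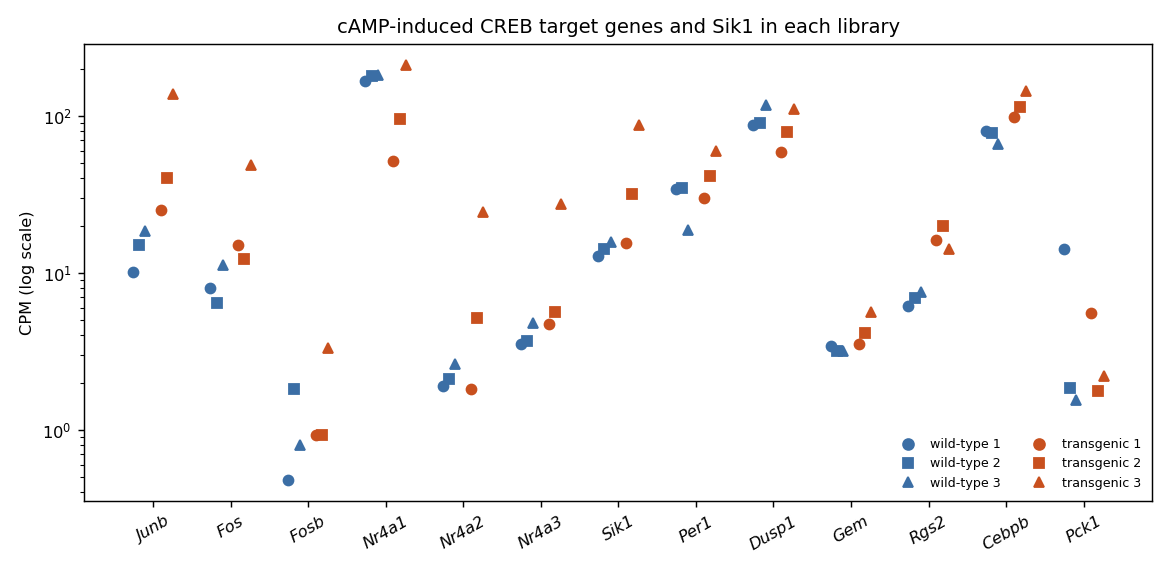
CPM (vertical axis, log scale) of the 12 CREB target genes and Sik1 in each library, blue for wild-type and orange for transgenic, with the marker shape giving the replicate number. Transgenic replicate 3 is the highest point for most of these genes, Junb, Fos, Nr4a2, Nr4a3 and Sik1 among them. The 3 transgenic points of Rgs2 (14.3 to 19.9 CPM) lie together above the wild-type points (6.15 to 7.53 CPM).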

How the data were processed

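RNA from frozen, pulverised gastrocnemius muscle was extracted with Trizol and sequenced from Illumina libraries, per the labels' protocols. Per the submitters' processing notes, the authors used STAR 2.5.0a with build GRCm38.p6, featureCounts 2.0.0, and DESeq2 in a version that is not given in the sources used here. The deposited table holds raw counts per gene, and strand was ignored and a fragment that overlaps more than 1 gene added a count to every one of them, per the file headers. The authors' deposited comparison holds log2 fold changes and p-values.

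Genes were matched by ID to GENCODE M21 (51718 of 51911 with a symbol), whose merged exons gave lengths. After filterByExpr and TMM scaling, genotype was tested in edgeR 4.0.16 (R 4.3.3) with a robust quasi-likelihood fit and no other term, with Benjamini-Hochberg adjustment over 16593 genes and a threshold of 0.05. SE is the absolute log2 fold change over the square root of F. The biological coefficient of variation was 10.7%. Library totals of 25532146 to 40846872 set the precision: a count of 3 is 0.0804 to 0.134 CPM. Family shares used exact permutation tests in SciPy 1.17.1. DESeq2 1.42.0, limma-voom (limma 3.58.1), other scalings and filters, a replicate block and fits on 5 of the 6 libraries were the alternatives. The script was tested on simulated data in which few genes differed, so that test does not bear on the scaling between libraries. No library was a duplicate: within a genotype, chi-square over its degrees of freedom was 9.92 to 24.

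The members and the 14 pathway lists and 8 marker lists were chosen with earlier results of these data known. The text names all 9 members, up to 4 further genes past the threshold by smallest p in each list (where fewer than 2 passed, the most abundant), and the 3 most alike genes of the 2 members with the smallest p. One gene within this rule, and the family share it enters, are not reported here. Family partners, Akap13, Sik1 and the CREB targets other than Rgs2 and Cebpb were named after their values were seen. Promoters came from RefSeq windows matched by symbol for 7 of the 9 members, and protein sequences were not used here.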

Additional observations from a re-analysis of the deposited data

How the results depend on the processing

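With library totals alone 5 members were called higher and 1 lower, against 2 and 3 with TMM factors, and 40 pathway genes were higher and 5 lower, against 14 and 27. Pde4a moved from -0.00065 to 0.39 there, while the median of all tested genes moved from -0.016 to 0.38. Of the 27 lower pathway calls 22 were lost, with Akap13 passing as higher instead, while all 14 higher ones were kept. This setting omits the factors that differ between genotypes. DESeq2's Wald test called 1 member higher. Leaving out each library in turn gave 1 to 2 members higher and 3 lower, and 11 to 14 pathway genes higher and 24 to 26 lower. Without length scaling the difference in the share of Prkaca was 12.5 percentage points in place of 6.04. A replicate block gave 2 members higher and 3 lower and 14 and 27 pathway genes, of which 13 and 26 were calls of the fit without it. Same-numbered libraries correlated at 0.101, -0.088 and -0.21 in their deviations from the genotype means. Not every library correlated best with its own number (transgenic replicate 3 with wild-type replicate 2 at 0.246). With 3 libraries a group these values cannot settle whether same-numbered libraries share a batch, and the labels do not say. DESeq2 size factors, upper-quartile factors, both other filters and limma-voom kept the member counts at 2 and 3. Depth limits Adrb1 alone among the members, and 3 libraries a group limit every exact permutation test to p = 0.1.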

Other observations

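Several genes of the pathway were too low to be tested. Adrb3, the beta-3 receptor gene of fat, had 13, 6 and 12 counts in transgenic and 48, 0 and 3 counts in wild-type libraries, and the 48 counts came from wild-type replicate 1, the library with the highest summed adipocyte markers; the part of fat in that value was not tested. Adra1b, an alpha-1 receptor gene, had 34 counts against 20, a depth-scaled ratio of 1.40 (95% counting interval 0.781 to 2.56). Adcy8, a calcium-stimulated cyclase, had 34 against 17 (1.64, interval 0.892 to 3.13), and Pkib, a PKA inhibitor, 11 against 6 (1.51, interval 0.51 to 4.96). Pde11a had 16 against 11 (1.19, interval 0.52 to 2.85) and the soluble cyclase Adcy10 4 against 5 (0.657, interval 0.13 to 3.05). The intervals of these last 5 genes include a ratio of 1.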
